A study of Mus musculus with 18 samples.

Results

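A set of 9 genes that mark tuft cells was examined in RNA-seq of mouse small intestinal crypts, chosen by gene symbol from the 55335 genes of the count table. They were Dclk1, Pou2f3, Trpm5, Il25, Alox5, Alox5ap, Avil, Gnat3 and Gfi1b, and each symbol matched 1 row. Prmt1 fl/fl mice of 8 to 12 weeks, with or without a CreERT2 transgene driven by the villin promoter, received 2 mg of tamoxifen per injection, so the controls carried the floxed alleles and the drug but no recombinase. Crypts of KO mice (with Cre) and WT littermates (without Cre) were collected 2, 7 and 14 days after the first injection, following 2 injections at day 2 and 5 injections at days 7 and 14. Each of the 6 groups held 3 libraries of 1 mouse each, 18 in total, with 12844642 to 31493484 read pairs (reads hereafter) assigned to genes. Villin drives Cre in the epithelium alone, so leukocytes, stroma and nerves in a crypt preparation keep Prmt1. In whole-gene counts, which do not separate the excised exons, Prmt1 in KO crypts was 54.1%, 66.6% and 60.9% of WT at days 2, 7 and 14 (edgeR quasi-likelihood test, Benjamini-Hochberg adjusted p = 0.0264, 0.00675 and 0.00329), and KO and WT libraries did not overlap on any day.

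Tuft cells are rare chemosensory cells of the gut epithelium. The transcription factor POU2F3 is required for the lineage. Luminal signals reach them through taste-like G proteins such as gustducin (GNAT3), which end in opening of the cation channel TRPM5, and the cells answer parasites by releasing IL-25 and cysteinyl leukotrienes. Those products act on group 2 innate lymphoid cells, whose IL-13 feeds back on crypt progenitors and raises the number of tuft and goblet cells.

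The promoter windows below are shown because they belong to the 2 genes that differed between KO and WT crypts, Dclk1 with both of its RefSeq starts and Alox5, and to Avil, the member whose window held the first 7 letters of the octamer bound by POU proteins. Each is the 250 bases before a RefSeq start (GRCm38.p6), read along the gene's own strand, with matches in capitals.
Dclk1, upstream start, chr3:55242114-55242363, plus strand: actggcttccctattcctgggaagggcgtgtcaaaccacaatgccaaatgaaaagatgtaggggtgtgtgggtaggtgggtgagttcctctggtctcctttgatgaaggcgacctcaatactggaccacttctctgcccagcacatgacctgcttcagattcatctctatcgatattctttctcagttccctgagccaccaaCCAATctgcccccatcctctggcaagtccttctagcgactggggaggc
Dclk1, downstream start, chr3:55461478-55461727, plus strand: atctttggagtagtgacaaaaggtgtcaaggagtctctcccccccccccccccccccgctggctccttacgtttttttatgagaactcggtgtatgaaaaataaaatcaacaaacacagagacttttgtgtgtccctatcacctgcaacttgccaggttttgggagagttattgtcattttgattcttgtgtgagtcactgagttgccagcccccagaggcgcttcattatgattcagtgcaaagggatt
Alox5, chr6:116461179-116461428, minus strand: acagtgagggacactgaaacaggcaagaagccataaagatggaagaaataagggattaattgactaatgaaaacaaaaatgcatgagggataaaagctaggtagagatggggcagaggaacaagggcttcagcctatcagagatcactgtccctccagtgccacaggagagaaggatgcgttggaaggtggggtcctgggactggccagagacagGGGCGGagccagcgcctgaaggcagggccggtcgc
Avil, chr10:127000459-127000708, plus strand: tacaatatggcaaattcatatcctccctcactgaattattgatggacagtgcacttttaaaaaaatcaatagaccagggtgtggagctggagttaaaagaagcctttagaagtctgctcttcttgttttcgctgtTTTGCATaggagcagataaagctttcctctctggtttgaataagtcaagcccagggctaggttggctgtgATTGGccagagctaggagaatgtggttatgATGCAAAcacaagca
RefSeq windows were found for 6 of the 9 genes, as 7 starts, and not for Pou2f3, Il25 or Alox5ap. Both strands were searched for the octamer ATGCAAAT and for its first 7 letters, ATGCAAA, which every octamer match also holds. The GC box was searched as the letters GGGCGG. The CCAAT box was searched as the letters of its name, and the TATA box as the letters TATAAA. A match on the opposite strand appears in the windows as its reverse complement. The octamer was in none of the 7 windows, against 1.6% of 32851 windows of this length. Avil held ATGCAAA on the plus strand beginning 15 bases before the start, and on the minus strand in a match beginning 115 bases before it, where 4.12% of all windows held at least 1 match. GGGCGG stood 35 bases before the Alox5 start and 10 before that of Gfi1b (32.7% of all windows). CCAAT stood 48 bases before the upstream Dclk1 start, and on the opposite strand 45, 83 and 89 bases before the starts of Avil, Gfi1b and Gnat3 (33.8% of all windows). TATAAA was in none, against 12.4% of all windows, and the downstream Dclk1 window and the Trpm5 window held none of these letters.

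Levels of different genes were compared as FPKM, which is CPM (counts per 1000000 reads of a library total adjusted by TMM) divided by the length of the merged exons in kilobases. In the 9 WT libraries, Avil (3.91 ± 0.64 FPKM, SD, n = 9) and Trpm5 (3.59 ± 0.552) were the most abundant members, with ranges of 2.88 to 4.74 and 2.85 to 4.52 that overlapped. Alox5ap (2.31 ± 0.574) and Dclk1 (1.84 ± 0.23) came next and also overlapped, followed by Alox5 (1.01 ± 0.162) and Pou2f3 (0.944 ± 0.227). Gnat3 (0.235 ± 0.161), Gfi1b (0.194 ± 0.0807) and Il25 (0.0553 ± 0.0469) were the lowest and overlapped with each other. Of the 9 members, 7 passed the filter on low counts, among 21349 genes that did so. Il25 had 0 to 6 reads per library and Gnat3 had 1 to 21, and neither was tested.

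**Figure D1:**
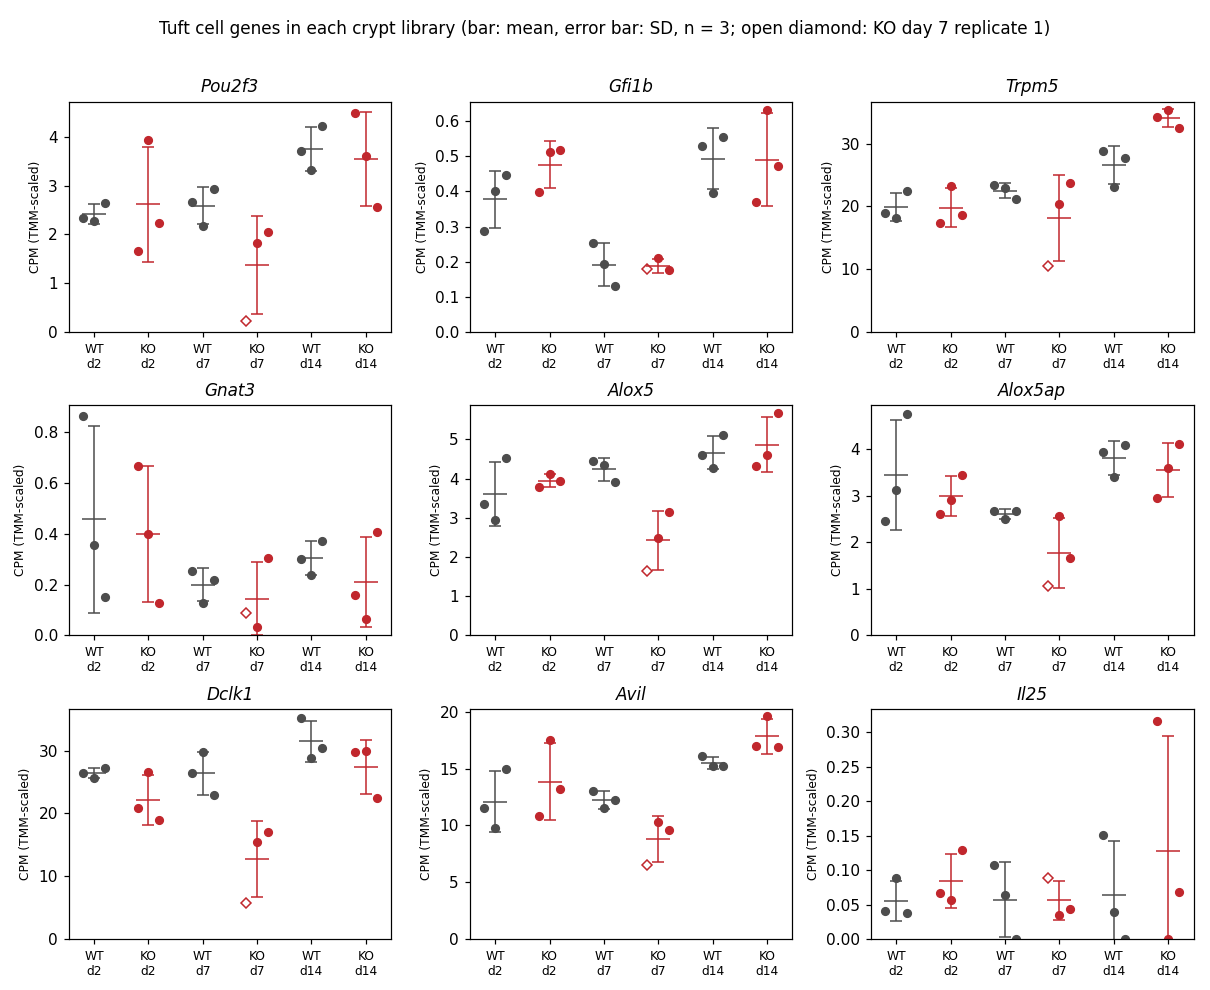
TMM-scaled CPM (y axis) of the 9 tuft cell genes in each of the 18 libraries, by group (x axis), with mean and SD of 3 libraries. The 3 KO day 7 libraries lie below the 3 WT day 7 libraries for Dclk1, Pou2f3, Alox5 and Avil, and the open diamond, KO day 7 replicate 1, is the lowest point of all 18 for 6 genes.

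At day 7 Dclk1 and Alox5 were reduced in KO crypts, to 48.6% and 57.4% of the WT level. Neither was called with the day 7 libraries alone in the fit (adjusted p = 0.0654 and 0.0635, edgeR). The Alox5 call was also lost without KO day 7 replicate 1 or WT day 7 replicate 1. The other 5 tested genes also had negative log2 fold changes at day 7 that did not pass the test, from -0.91 (Pou2f3) to -0.042 (Gfi1b). The median over the 7 genes was -0.55, against 0.016 over all genes tested, and -0.31 over the 8 members tested without KO day 7 replicate 1. The members called lower were thus 2 of 7, and 10.2% of all tested genes were called lower in the same comparison. No member passed the test at day 2 or day 14. The tissue was bulk, so fewer tuft cells and less RNA per tuft cell cannot be told apart. Only KO mice held the recombinase, so its activity under tamoxifen and the loss of Prmt1 cannot be told apart either.

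The lineage regulator Pou2f3 had 0.222, 1.83 and 2.05 CPM in the 3 KO day 7 libraries and 2.66, 2.17 and 2.93 CPM in the 3 WT day 7 libraries. All KO values were below all WT values, but the KO values spread widely, and replicate 1 rested on 5 reads. The log2 fold change was -0.91 (SE 0.44, adjusted p = 0.172, edgeR). At day 2 the groups overlapped, with 1.66 to 3.94 in KO and 2.27 to 2.64 CPM in WT crypts, and at day 14 they did again, with 2.56 to 4.48 CPM and 3.32 to 4.22 CPM. Gfi1b, a repressor that tuft cells share with megakaryocytes and red cell precursors, had 3 to 12 reads per library. Its group means were 0.188 ± 0.0199 CPM (SD, n = 3) in KO and 0.192 ± 0.0602 CPM in WT crypts at day 7, and at this depth a difference between them was not detectable. At days 2 and 14 the Gfi1b means of both genotypes lay between 0.378 and 0.493 CPM.

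Trpm5, the channel at the end of the chemosensory cascade, was at 10.5, 20.4 and 23.7 CPM in KO day 7 crypts and at 23.4, 23 and 21.1 CPM in WT day 7 crypts. A single KO library was low and the other 2 lay near the WT values, and the fitted log2 fold change was -0.31 (SE 0.20, adjusted p = 0.336). At day 14 all KO values, 34.3, 35.3 and 32.5 CPM, lay above all WT values, 28.9, 23.1 and 27.7 CPM. That difference was 0.36 on the log2 scale (SE 0.20, adjusted p = 0.317, edgeR). At day 2 KO crypts had 17.4 to 23.3 CPM and WT crypts 18.2 to 22.5 CPM. A stretch of 3.44% of the Trpm5 exons is also annotated to Tssc4, and reads there were counted for both genes without regard to strand. Gnat3, the gustducin subunit upstream of the channel, summed to 10 reads in the KO day 7 group and 14 in the WT day 7 group. Its levels overlapped between KO and WT on each day, and without the filter on low counts its log2 fold changes were -0.27, -0.58 and -0.57 at days 2, 7 and 14, none called.

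Alox5, the lipoxygenase that begins leukotriene synthesis, had 1.65, 2.49 and 3.14 CPM in KO day 7 libraries. The WT day 7 libraries had 4.46, 4.34 and 3.90 CPM, all higher. The log2 fold change was -0.80 (SE 0.22, adjusted p = 0.0174, edgeR), a call that was lost without KO day 7 replicate 1 (-0.57, adjusted p = 0.112), without WT day 7 replicate 1 (-0.76, adjusted p = 0.0615) and with the day 7 libraries alone in the fit (-0.81, adjusted p = 0.0635). At day 2, 3.79, 4.11 and 3.93 CPM in KO lay within the WT range of 2.94 to 4.53 CPM, and at day 14 KO crypts had 4.32 to 5.67 CPM and WT crypts 4.26 to 5.10 CPM. Alox5ap, which encodes the protein that presents arachidonic acid to that enzyme, had 1.07, 2.56 and 1.66 CPM in KO and 2.66, 2.49 and 2.67 CPM in WT crypts at day 7. The 3 WT values were close together and 1 KO value lay among them, giving -0.55 (SE 0.28, adjusted p = 0.203). Gm19719 covers 13.3% of the Alox5ap exons, so part of its reads cannot be assigned to 1 gene. Both lipoxygenase pathway genes are also made by leukocytes. Of 17 leukocyte markers 15 were tested and 0 were called at day 7 (edgeR; 1 at an unadjusted p under 0.05 and 0 by DESeq2), beside 10.2% of all genes called lower and 7.11% higher. Their median log2 fold change was 0.31, or 0.54 without KO day 7 replicate 1, with 3 of the 15 below 0. Among those 3 were the myeloid genes Lyz2, at -1.04 (adjusted p = 0.197) with every KO library below every WT library, and Itgam, at -0.51 (adjusted p = 0.398, edgeR). Other listed genes of myeloid cells had positive values. Fcer1g was at 0.72 (unadjusted p = 0.0403, edgeR), with every KO library above every WT library. Tyrobp and Adgre1 were at 0.46 and 1.21, with overlapping libraries. The summed level of the leukocyte list ran from 64.6 to 151 CPM in KO and from 70.3 to 127 CPM in WT. The lowest of those sums, 64.6 CPM, was in KO day 7 replicate 1. None of the 17 was at 0 in every library, and the part of leukocyte RNA in the Alox5 difference was not tested.

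Dclk1, a microtubule-associated kinase used as the standard tuft cell marker, had 5.78, 15.5 and 17 CPM in KO day 7 libraries against 26.5, 29.8 and 22.9 CPM in WT day 7 libraries. Its KO day 7 group was the only one of the 6 groups that did not overlap with the next in the order of mean levels. This was also so for Pou2f3, but its KO day 7 range, 0.222 to 2.05 CPM, overlapped with that of KO day 2, 1.66 to 3.94 CPM. The log2 fold change of Dclk1 at day 7 was -1.04 (SE 0.26, adjusted p = 0.0106, edgeR). With the day 7 libraries alone in the fit Dclk1 was not called (-1.05, adjusted p = 0.0654). At day 2 the KO values of 20.8, 26.6 and 18.9 CPM overlapped with 26.4, 25.7 and 27.2 CPM in WT. At day 14 the KO values of 29.8, 30.0 and 22.4 CPM overlapped with 35.2, 28.8 and 30.4 CPM in WT, for log2 fold changes of -0.26 (SE 0.26) and -0.20 (SE 0.26), which did not pass the test. Avil, the actin-binding protein advillin of the tuft cell brush, had 6.49, 10.3 and 9.56 CPM in KO and 13, 11.5 and 12.2 CPM in WT crypts at day 7. The libraries did not overlap, but the difference of -0.48 (SE 0.19, adjusted p = 0.095) missed the threshold. At day 14 all KO values, 17, 19.6 and 16.9 CPM, lay above all WT values, 16.1, 15.2 and 15.2 CPM, a difference of 0.20 on the log2 scale (SE 0.19) that did not pass (adjusted p = 0.594). Avil shares 4.86% of its exon bases with Tsfm.

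Il25, the cytokine by which tuft cells alert innate lymphoid cells, was near the limit of detection. Its reads summed to 5 and 4 in KO and WT crypts at day 2, 4 and 4 at day 7, and 7 and 3 at day 14, with 0 reads in 3 of 18 libraries. Of the 7 reads of the KO day 14 group, 6 were in replicate 1, and no difference was detectable at this depth.

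**Figure D2:**
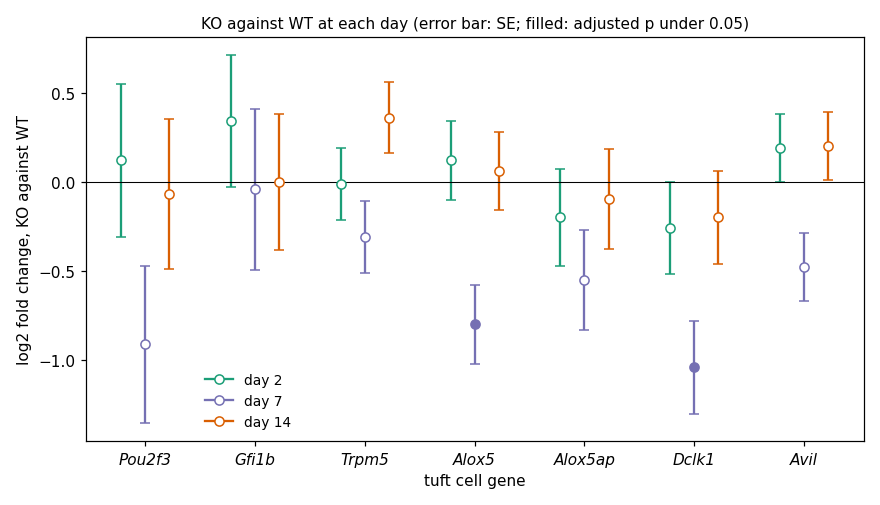
Log2 fold change of KO against WT (y axis, error bars SE) for the 7 tested tuft cell genes (x axis) at days 2, 7 and 14. The filled points, Alox5 (-0.80) and Dclk1 (-1.04) at day 7, are those with an adjusted p under 0.05.

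Counted over the days, 0 of 7 members were called at day 2, where 0.0328% of all tested genes were called in either direction, and 0 of 7 at day 14, where 7.92% were (edgeR; at an unadjusted p under 0.05, 0 members on either day, and 0 by DESeq2). Of 7 members, 4 had all KO values below all WT values at day 7, as 17.7% of all tested genes did. At day 14, 2 of 7 members had all KO values above all WT values, against 12.4% of all tested genes. The difference between days was tested directly as an interaction. From day 2 to day 7 the KO effect moved by -0.92 (SE 0.31, adjusted p = 0.105) for Alox5, -0.78 (SE 0.37, adjusted p = 0.27) for Dclk1 and -0.67 (SE 0.27, adjusted p = 0.182) for Avil. From day 7 to day 14 it moved back by 0.86 (SE 0.31) for Alox5, 0.84 (SE 0.37) for Dclk1, 0.68 (SE 0.27) for Avil and 0.67 (SE 0.28) for Trpm5, each with an adjusted p of 0.999. No member passed in any of the 3 interactions, in which 4.37% (day 7 against day 2), 1.04% (day 14 against day 2) and 0% (day 14 against day 7) of all genes did, although 3, 0 and 4 members had an unadjusted p under 0.05 and DESeq2 called 0. Among WT crypts alone no member passed between days either, where 0.553% (day 7 against day 2), 1.61% (day 14 against day 2) and 0.0796% (day 14 against day 7) of all genes were called. There 1, 0 and 1 members had an unadjusted p under 0.05, and DESeq2 called 0.

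The size of the day 7 difference rested in part on 1 library. KO day 7 replicate 1 had the lowest value of all 18 libraries for 6 of the 7 tested members, and for 11.1% of all tested genes, where the other libraries had the lowest value for 2.3% to 10.1%. As a percentage of the WT day 7 mean, it stood at 21.9% for Dclk1, 8.59% for Pou2f3, 46.5% for Trpm5, 38.9% for Alox5, 40.9% for Alox5ap and 53.1% for Avil. In replicates 2 and 3 Dclk1 was at 58.8% and 64.6%, Alox5 at 58.8% and 74.2%, Avil at 84.3% and 78.2%, and Trpm5 at 90.8% and 105%. Summed over the 9 genes, KO day 7 replicate 1 had 26.0 CPM, the other 2 KO day 7 libraries 53.4 and 57.6 CPM, and WT day 7 libraries 66.0 to 73.7 CPM. Without that library Dclk1 was still called lower, at -0.68 (SE 0.17, adjusted p = 0.0138), Alox5 was not (-0.57, SE 0.22, adjusted p = 0.112), Pou2f3 stood at -0.41 (SE 0.31), Trpm5 at -0.0099 (SE 0.14), Alox5ap at -0.28 (SE 0.28) and Avil at -0.28 (SE 0.18).

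Members were also compared with each other within a library, as ratios. The ratio of Dclk1 to Trpm5, both in FPKM, was chosen after the values were seen, out of 15 ratios among the 6 members with at least 1 CPM on average, and is given without a test. At day 7 it was 0.231, 0.318 and 0.301 in KO and 0.473, 0.541 and 0.454 in WT libraries. At day 14 it was 0.364, 0.355 and 0.288 in KO and 0.509, 0.522 and 0.460 in WT. Every KO library of days 7 and 14 thus had a lower ratio than every WT library of any day, with replicate 1 of KO day 7 the lowest. The 3 KO day 2 libraries, at 0.502, 0.479 and 0.424, lay just below the WT day 2 libraries, at 0.581, 0.590 and 0.504. The ratio of Dclk1 to Avil had group means of 0.309 in KO and 0.481 in WT at day 7, and of 0.342 and 0.451 at day 14, without overlap on either day. The other ratios of Dclk1 overlapped between KO and WT on every day. At day 7 the ratio to Pou2f3 had means of 2.88 in KO and 2.12 in WT, higher in KO, while that to Alox5 had 1.36 and 1.67 and that to Alox5ap 0.673 and 0.942. Of all 15 ratios, 1, 4 and 4 did not overlap between KO and WT at days 2, 7 and 14. Without Dclk1, these were Pou2f3 to Trpm5 (means of 0.136 in KO and 0.24 in WT) and Trpm5 to Alox5 (4.72 and 3.41) at day 7. At day 14 they were Trpm5 to Alox5ap (2.17 and 1.55) and Alox5 to Alox5ap (0.475 and 0.424).

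**Figure D3:**
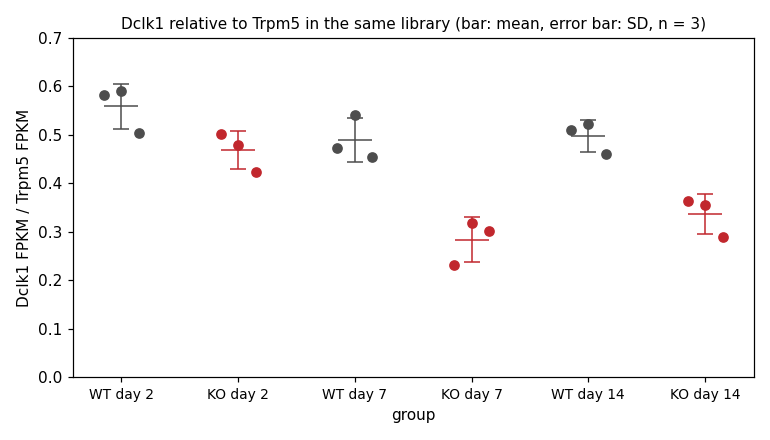
Ratio of Dclk1 FPKM to Trpm5 FPKM (y axis) in each of the 18 libraries by group (x axis), with mean and SD of 3 libraries. Group means are 0.489 in WT and 0.283 in KO at day 7, and 0.497 and 0.336 at day 14.

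A further 4 lists held 42 other genes expressed by tuft cells, of which 40 were tested. At day 7, 6 of the 40 were called lower, beside 10.2% of all genes, and 0 higher, 33 of 40 had negative log2 fold changes where 48.4% of all genes did, and the median was -0.45 against 0.016 over all genes. At day 14 the list was evenly divided, with 20 negative and 20 positive values, a median of 0.0033 and 2 genes called lower, where 7.92% of all genes were called in either direction. At day 2, 0 were called (edgeR; 0 at an unadjusted p under 0.05 and 0 by DESeq2) and the median was -0.068. Without KO day 7 replicate 1 all 42 were tested. Of these, 4 were called lower at day 7, beside 5.61% of all genes in that fit, and the median was -0.23.

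Among 6 transcription regulators, Colca2, also listed as Gm684 and encoding a coactivator of POU2F3, was lower in KO crypts at day 7 and day 14. It had 0.311, 1.47 and 1.18 CPM in KO day 7 libraries and 4.21, 4.09 and 3.94 CPM in WT. At day 14 it had 1.63, 1.70 and 2.16 CPM in KO and 5.21, 4.46 and 4.59 CPM in WT. No KO library reached a WT library on either day, for log2 fold changes of -2.02 (SE 0.33, adjusted p = 0.000314) and -1.37 (SE 0.32, adjusted p = 0.0108). At day 2 the groups overlapped (0.22, SE 0.30, adjusted p = 0.999). The day 7 call held in all 14 alternative fits, whereas leaving out KO day 14 replicate 1 or 2 ended the day 14 call (adjusted p up to 0.0588), with -1.49 to -1.29 over 14 fits. The second coactivator gene, 1810046K07Rik, had 4.53 ± 0.749 CPM (SD, n = 3) in KO and 3.64 ± 0.862 CPM in WT crypts at day 7, and was not called. Sox9, a factor of crypt progenitors and Paneth cells as well as tuft cells, fell at day 7 from 26.7 ± 0.961 CPM in WT to 16 ± 4.66 CPM in KO (-0.73, SE 0.16, adjusted p = 0.00367).

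Of 12 genes for chemosensory signalling 10 were tested, 2 were called lower at day 7 and 0 higher, beside 10.2% and 7.11% of all genes. Itpr2, a receptor that releases calcium from the endoplasmic reticulum, had 15.5, 15.5 and 29.6 CPM in KO day 7 libraries and 48.9, 40.3 and 37.3 CPM in WT. It was also lower at day 14, with 22.1 to 26.1 in KO and 38.4 to 44.2 CPM in WT crypts. The log2 fold changes were -1.06 (SE 0.20, adjusted p = 0.00119) and -0.79 (SE 0.20, adjusted p = 0.0184), and the day 14 call was lost without KO replicate 1, KO replicate 3 or WT replicate 3 (adjusted p up to 0.0785), with -0.85 to -0.72 over 14 alternative fits. Tas1r3, a subunit of sweet and umami receptors, fell at day 7 (-0.85, SE 0.22, adjusted p = 0.0109). Without KO day 7 replicate 1 it was at -0.78 and no longer called (adjusted p = 0.0555), and leaving out KO replicate 2 or WT replicate 1 also ended the call, with a log2 fold change of -0.74 or lower in each of 14 alternative fits. The paralogue Itpr3, which acts upstream of TRPM5, had 373 ± 7.82 in KO and 324 ± 31.7 CPM in WT crypts at day 7 and was not called. Plcb2 and Gng13 had -0.51 (SE 0.31) and -0.37 (SE 0.26), neither called, and -0.24 and -0.23 without KO day 7 replicate 1.

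Among 4 genes for eicosanoid and acetylcholine synthesis 0 were called on any day by edgeR or DESeq2, with 0, 1 and 1 at an unadjusted p under 0.05 at days 2, 7 and 14, where edgeR called 0.0328% of all genes at day 2, 10.2% lower and 7.11% higher at day 7 and 7.92% at day 14. Chat and Ptgs1 had -1.17 (SE 0.48, unadjusted p = 0.0251) and -0.60 (SE 0.33, unadjusted p = 0.0786) at day 7, while Hpgds and Ltc4s had -0.077 (SE 0.24) and 0.27 (SE 0.21). Without KO day 7 replicate 1 Chat and Ptgs1 had -0.78 and -0.34. Among 20 other tuft cell markers, 2 were called lower at day 7, a share near the 10.2% of all genes, and 0 higher. Cd24a, a surface protein that Paneth and enteroendocrine cells also carry, fell from 149 ± 13.9 CPM in WT to 81.7 ± 16.1 CPM in KO (-0.87, SE 0.18, adjusted p = 0.00272). Sh2d7, an adaptor protein gene, had -0.79 (SE 0.21, adjusted p = 0.0134), a call that was lost without KO day 7 replicate 1 (-0.51, adjusted p = 0.076), without WT replicate 2 and in the fit of the day 7 libraries alone. Krt18 and Ptpn6, at -0.053 and -0.041, were near 0.

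**Figure D4:**
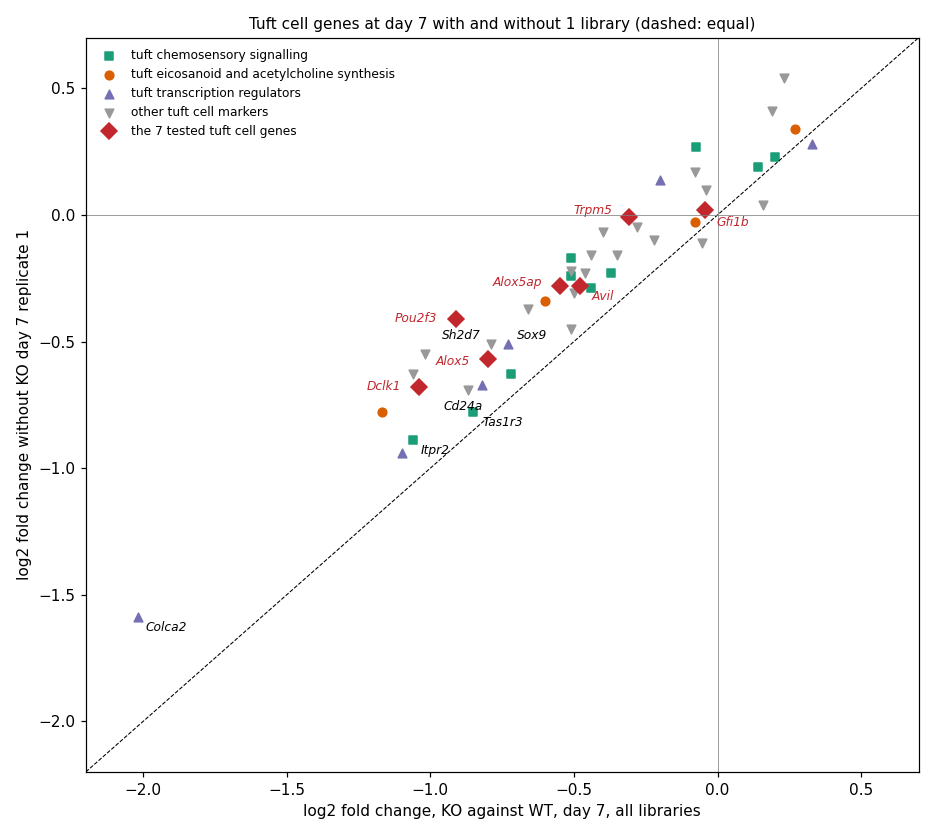
Log2 fold change of KO against WT at day 7 with all libraries (x axis) and without KO day 7 replicate 1 (y axis) for the 7 tested members and 40 other tuft cell genes. Among the points plotted Colca2 is the most negative on both axes (-2.02 and -1.59), and Dclk1 moves from -1.04 to -0.68.

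Of 10 listed genes of the circuit between tuft cells and type 2 lymphoid cells, 6, among them the cytokines Il4, Il5 and Il13, were too low to test. The remaining 4 had positive log2 fold changes at day 7, and 3 of the 4 were called higher, where 7.11% of all genes were. Il33, an alarmin, had 23.2 ± 6.99 CPM (SD, n = 3) in KO and 9.09 ± 2.40 CPM in WT (1.36, SE 0.31, adjusted p = 0.00541). Sprr2a3, a small proline-rich protein gene of epithelial repair, had 10.6 ± 3.94 and 2.35 ± 1.12 CPM (2.14, SE 0.46, adjusted p = 0.00377). Il4ra, the receptor chain that IL-4 and IL-13 share, had 81.3 ± 14.5 and 57.3 ± 7.26 CPM (0.50, SE 0.16, adjusted p = 0.0391), and was not called without KO day 7 replicate 1 (0.39, adjusted p = 0.166). Leaving out any WT day 7 library also ended the Il4ra call (adjusted p up to 0.171), as did the fit of the day 7 libraries alone. At day 14 edgeR called none of the 3 (adjusted p = 0.0786, 0.0787 and 0.16), although all 3 had an unadjusted p under 0.05. DESeq2 called 2 of them, Il33 and Sprr2a3, and Sprr2a3 was also called with replicate number as a block and in the fit of the day 14 libraries alone (adjusted p = 0.0386).

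Markers of other cells were counted in the same libraries. Of 12 markers of enteroendocrine cells, another rare secretory lineage, 11 were called higher at day 7, beside 7.11% of all genes, with a median of 1.24. At day 14, 12 of 12 were called higher, where 7.92% of all genes were called in either direction, with a median of 1.35. Summed, they reached 723 to 908 in KO and 321 to 343 CPM in WT crypts at day 7, and the highest sum, 908 CPM, was that of KO day 7 replicate 1. Of 9 enterocyte markers, 2 were called higher and 1 lower at day 7 (7.11% and 10.2% of all genes, the shares to read the next lists against as well), with sums of 14700 to 22300 in KO and 9930 to 12600 CPM in WT crypts, again highest in KO day 7 replicate 1. Without that library all 3 of these calls were lost, for Fabp1 (1.25, adjusted p = 0.0734), Fabp2 (1.01, adjusted p = 0.157) and Lct (-1.28, adjusted p = 0.181, edgeR). Of 9 stromal and endothelial markers 1 was called higher, and their sums overlapped, at 28.1 to 80.2 in KO and 20.8 to 56.7 CPM in WT crypts. Of 8 enteric neuron and glia markers 3 were tested, 2 were higher and 1 was lower at day 7, with sums of 7.37 to 11.6 in KO and 4.47 to 7.27 CPM in WT crypts. Of the pair called higher, Ret and S100b, S100b lost its call without KO day 7 replicate 1 (1.16, adjusted p = 0.118, edgeR), and DESeq2 called 1 of the list higher and 1 lower. Of 8 mast cell markers 2 were tested, and of 8 megakaryocyte and erythroid markers 4 were tested, with 0 called at day 7 (edgeR; 0 at an unadjusted p under 0.05 and 0 by DESeq2). The sums of the megakaryocyte and erythroid list, in which Ppbp was at 0 in every library, were 8.07 to 18.1 in KO and 13.4 to 33.4 CPM in WT crypts at day 7. The part of any of these cells in the tuft cell gene differences was not tested.

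Across the 18 libraries, with the mean of each group removed from log2 CPM, the 7 tested members correlated with each other with a median Pearson r of 0.63 over 21 pairs (0.12 to 0.93), and 0.46 without KO day 7 replicate 1 (-0.25 to 0.75). Of 17074 other genes with at least 1 CPM on average, those most like the mean of the standardized members included Spib (r = 0.90), Sh2d6 (0.89), Map3k1 (0.85) and Mark3 (0.84). Spib, an ETS transcription factor, and Sh2d6, an adaptor protein, were on the tuft cell lists. Without KO day 7 replicate 1, whose standardized mean of -2.22 was the farthest from 0, r was 0.70, 0.73, 0.79 and 0.91 for these 4 genes, and their ranks among the 17074 genes went from 1 to 109 for Spib, 2 to 74 for Sh2d6, 4 to 27 for Map3k1 and 5 to 2 for Mark3.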

How the data were processed

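RNA of purified small intestinal crypts was made into ribosome-depleted total RNA libraries and sequenced as paired ends. Per the file header, the submitters' processing notes and the study's methods, the authors aligned reads with STAR 2.7.3 to mm10 and deposited raw counts per gene from featureCounts 1.6.4 (GENCODE annotation, all overlapping genes counted, multi-mapping reads dropped, no strand setting). The 18 columns were matched to samples by title, and no column was left unused. The merged exon length of each gene in the deposited table is a gene property that was used only for FPKM.

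Total counts were 12844642 to 31493484 per library. As in the study, 20 genes that it lists as differing between the sexes were left out. The study used mice of both sexes, matched between KO and WT. The labels do not give the sex of each mouse, and the fit held no term for sex. Counts were normalised by TMM, filtered by edgeR's filterByExpr by group and fitted with edgeR 4.0.16 (quasi-likelihood, robust, all 6 groups, R 4.3.3), with Benjamini-Hochberg adjustment over all 21349 genes and a threshold of 0.05. CPM values use TMM-scaled totals, and log2 CPM a prior count of 2. The standard errors are the log2 fold change divided by the square root of the F statistic. Each library is 1 mouse. A permutation test of 3 against 3 cannot give a p below 0.1 and was not used. The scripts were tested on simulated data. DESeq2 1.42.0, other size factors and filters, the 6 libraries of a day alone, a block for replicate number and leaving out each library were alternatives.

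The 9 genes, the named genes (all members, Prmt1, up to 12 called genes of the other tuft cell and circuit lists, and the 5 genes most like the members, of which 1 is not reported here) and the 12 lists were chosen with earlier results of these data known. Older symbols were matched through RefSeq synonyms. Promoter windows came from RefSeq (GRCm38.p6) and were cut to the bases before the start.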

Additional observations from a re-analysis of the deposited data

Results flagged for a closer look

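None of the 7 tuft cell genes that were tested differed in its KO effect between days at an adjusted p under 0.05 (edgeR quasi-likelihood interaction test, Benjamini-Hochberg adjusted). Among the 9 other tuft cell and circuit genes that are named because they were called on at least 1 day, 5 did, all between day 2 and day 7, when 4.37% of all tested genes did. The KO effect at day 7 minus that at day 2, on the log2 scale, was -2.24 (SE 0.45, adjusted p = 0.00705) for Colca2, -1.21 (SE 0.28, adjusted p = 0.0185) for Itpr2, -1.04 (SE 0.26, adjusted p = 0.0258) for Cd24a, -0.84 (SE 0.23, adjusted p = 0.0398) for Sox9 and 1.62 (SE 0.43, adjusted p = 0.0426) for Il33. Since the day 7 comparison is part of this difference, the choice of these genes is not independent of it. Over 20 alternative fits, the difference was called in 20 for Colca2, 18 for Itpr2, 14 for Cd24a, 8 for Sox9 and 10 for Il33. Without KO day 7 replicate 1 it was -1.82 (adjusted p = 0.00747) for Colca2, and it was no longer called for Itpr2 (-1.04, adjusted p = 0.0516), Cd24a (-0.88, adjusted p = 0.0799), Sox9 (-0.62, adjusted p = 0.0888) or Il33 (1.38, adjusted p = 0.126).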

How the results depend on the processing

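At day 7, 2 of the 9 tuft cell genes were called. With only the day 7 libraries in the fit 0 were called, and leaving out 1 library gave 1 to 3. The difference of the KO effect between days 7 and 2 had 0 members called, and 0 to 1 when 1 library was left out (1 without KO day 7 replicate 3, for Alox5). The cause of these changes was not tested. The other 7 counts of called members were 0 in every alternative fit. Of 288 alternative log2 fold changes of single members, 261 kept their direction and side of the threshold, 4 lost a call and 1 gained one (Alox5ap at day 7 without KO day 7 replicate 2, -0.93, adjusted p = 0.0469).

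Signs turned in 22, none of them called. Leaving out 1 library gave, at day 2, -0.29 to 0.34 for Pou2f3, -0.14 to 0.077 for Trpm5, -0.0024 to 0.31 for Alox5, -0.39 to 0.097 for Alox5ap and -0.0066 to 0.37 for Avil. At day 7 it gave -0.26 to 0.26 for Gfi1b. At day 14 it gave -0.27 to 0.13 for Pou2f3, -0.049 to 0.15 for Alox5, -0.20 to 0.032 for Alox5ap and -0.21 to 0.19 for Gfi1b, which was also 0.0094 with DESeq2 size factors, 0.0095 with the DESeq2 test and 0.0051 with the replicate block.

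KO and WT libraries share replicate numbers, but the labels tie no pair of mice. Deviations of same-numbered libraries from their group means correlated at -0.16 to 0.38, over 0.1 in 6 of 9 pairs. With replicate number as a block, 2 members were called at day 7 (Dclk1 -1.06, adjusted p = 0.0122, and Alox5 -0.83, adjusted p = 0.0133). Over all genes, 1219 were called lower at day 7 without KO day 7 replicate 1 instead of 2173, and 1749 with the day 7 libraries alone.

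Depth limits Il25, Gnat3 and Gfi1b, at 27, 105 and 135 reads summed over 18 libraries.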
